A study of Mus musculus with 49 samples.

Results

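The EGF receptor ligands and their receptors were followed through 8 groups of mouse skin and colon libraries. The set held 10 of the 24475 genes in each deposited table. They were taken as a list by Entrez identifier, with no rule on their measured values. Earlier results of these data were known when the list was chosen. The 7 ligands were Hbegf, Areg, Ereg, Tgfa, Btc, Epgn and Egf, and the 3 receptors were Egfr, Erbb2 and Erbb3. All 10 genes passed the filter on low counts in both tissues. In colon Epgn passed it only through DSS with PBS, the group where it was highest.

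The series measured messenger RNA by bulk sequencing in a mouse model of DITRA, the human disease in which the antagonist of the interleukin-36 receptor is deficient. All 49 libraries, controls included, came from this model on the background 75% C57BL/6NTac 25% 129S6/SvEvTac, so no group shows these genes outside it. The 23 skin libraries were water with PBS (3), IMQ with PBS (6), IMQ with an antibody against the IL-36 receptor (anti-IL-36R, 7) and IMQ with an antibody against IL-12p40 (anti-IL-12p40, 7). The 26 colon libraries were water with PBS (5), DSS with PBS (6), DSS with anti-IL-36R (8) and DSS with anti-IL-12p40 (7). IMQ is imiquimod, which gives psoriasis-like skin inflammation, and DSS is dextran sulfate sodium, which injures the colon epithelium. IL-12p40 is a subunit shared by IL-12 and IL-23. The altered allele, ages, doses and days were not given in the sources used here. The same sources do not say whether each library was a separate animal, so the p-values measure the spread between these libraries.

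The ligands are made as membrane-anchored precursors, and proteases of the ADAM family cut them free to act on the same or a neighbouring cell. Areg, Tgfa, Epgn and Egf bind EGFR, while Hbegf, Btc and Ereg also bind ERBB4. ERBB2 binds none of them and serves as the partner of the other receptors. ERBB3 binds neuregulins, has little kinase activity of its own and signals through its partner. In skin the pathway drives keratinocyte growth and migration during wound repair. In colon, Ereg and Areg are known for their part in the regrowth of injured epithelium.

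Epgn, Ereg, Areg and Btc lie next to each other on chromosome 5. The stretch from the start of the first to the end of the last spans 375.5 kb, and no other protein-coding gene lies between them. The gaps are 39.4 kb between Epgn and Ereg, 45.9 kb between Ereg and Areg, and 208.8 kb between Areg and Btc (GRCm38.p6, the build also called mm10). Tgfa lies at chr6:86195038-86275744, Egf at chr3:129677574-129755322, Egfr at chr11:16752203-16913907, Erbb2 at chr11:98412484-98437716 and Erbb3 at chr10:128567523-128589635. RefSeq promoters were found for 7 of the 10 genes, all but Hbegf, Ereg and Erbb3. Those of the 3 cluster genes found are shown as a description, and their part in the responses was not tested. Each is the 250 bases before the annotated start of transcription, read 5′ to 3′ on the gene's own strand, with matches to 2 of the 4 motifs searched in capitals.
Areg promoter, plus strand, chr5:91139349-91139598: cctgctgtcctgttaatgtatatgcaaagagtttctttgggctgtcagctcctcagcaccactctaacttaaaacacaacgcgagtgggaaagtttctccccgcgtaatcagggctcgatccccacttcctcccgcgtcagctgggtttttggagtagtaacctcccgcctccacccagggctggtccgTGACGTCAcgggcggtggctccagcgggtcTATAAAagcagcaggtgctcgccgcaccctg
Epgn promoter, plus strand, chr5:91027267-91027516: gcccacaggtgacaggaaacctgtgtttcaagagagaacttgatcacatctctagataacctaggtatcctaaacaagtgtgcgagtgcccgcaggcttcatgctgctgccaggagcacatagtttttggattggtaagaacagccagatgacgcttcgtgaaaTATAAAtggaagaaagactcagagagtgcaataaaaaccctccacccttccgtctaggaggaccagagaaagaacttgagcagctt
Btc promoter, minus strand, chr5:91402995-91403244: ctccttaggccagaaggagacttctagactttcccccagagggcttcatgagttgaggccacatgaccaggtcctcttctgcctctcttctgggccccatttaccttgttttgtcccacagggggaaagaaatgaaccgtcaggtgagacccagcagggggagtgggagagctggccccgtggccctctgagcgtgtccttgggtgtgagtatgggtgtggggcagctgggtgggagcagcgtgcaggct

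The search covered both strands for AP-1 (TGANTCA), CRE (TGACGTCA), STAT (TTCNNNGAA) and the TATA box (TATAAA), 4 motifs that do not contain one another. The Areg window held a CRE whose first base lies at -61 from the start and a TATA box at -31. The Epgn window held a TATA box at -86, and the Btc window held none of the 4 motifs. Of all 32851 RefSeq promoter windows, 1.55% held the CRE and 12.4% the TATA box. The AP-1 motif stood in 6.75% of them and the STAT motif in 7.02%. The windows of Tgfa, Egf, Egfr and Erbb2 held none of the 4. A match describes letters and no binding was measured.

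The libraries held 14723200 to 19678074 counts in skin and 15081670 to 18663357 in colon. Levels are given as CPM, the counts of a gene scaled to a common library total after TMM adjustment. The tissues fitted their labels. The 7 suprabasal keratinocyte markers summed to 8222 to 56060 CPM in skin and to 0.818 to 4.09 CPM in colon. The 7 absorptive colonocyte markers summed to 535 to 6633 CPM in colon and to 1.06 to 9.74 CPM in skin, where Aqp8 was at 0 in 3 of the 4 groups. By correlation with the group means over the 500 most variable genes, 7 of 23 skin and 14 of 26 colon libraries lay closer to another group than to the rest of their own, all but 1 of them in the antibody groups. In skin, replicate 7 of anti-IL-36R had a correlation of 0.461 with the mean of IMQ with PBS and of -0.081 with the rest of its own group, and replicates 1 and 3 of that group were also closest to IMQ with PBS. Calls that changed without replicate 7 are given both ways. Replicate 1 of IMQ with PBS held the suprabasal keratinocyte markers at 41360 CPM, against 8222 to 19260 CPM in the rest of its group. It was the highest of that group for Hbegf (226.5 CPM), Areg (31.95 CPM) and Tgfa (218.1 CPM). The same held for Ereg, Epgn, Btc and the receptors, while Egf was lowest there. In colon, replicates 5 and 6 of DSS with PBS had the lowest epithelial marker sums, 4128 and 2292 CPM. Replicate 6 also held the 7 basal keratinocyte markers at 3081 CPM, against 444 to 694 CPM in the other 5. Its 7 stress keratinocyte markers summed to 1701 CPM, against 4.71 to 28.05 CPM in the other 5.

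In water tissue, Erbb2 and Erbb3 had the highest levels of the 10 genes. Per kilobase of exon, Erbb2 and Erbb3 led in skin under water, with 28.2 ± 4.14 and 21.3 ± 3.01 CPM per kb (SD, n = 3). Ereg followed with 16.4 ± 10.54, and Egfr stood at 9.17 ± 0.108. From Erbb2 down to Egf at 1.04 ± 0.383, each mean differed from the next in the order by less than the sum of the SDs of that pair. In colon under water Erbb3 and Erbb2 stood apart from the ligands, at 40.8 ± 9.09 and 39.9 ± 3.38 CPM per kb (SD, n = 5). Areg and Tgfa came next with 6.90 ± 1.61 and 6.82 ± 0.670, and Epgn was last with 0.0425 ± 0.0441.

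The ligand with the largest mean share of the summed ligand level differed between water and inflamed tissue. In skin under water, Ereg made up 30.6% ± 5.22 of the summed ligand level (CPM per kb) and Hbegf 17.2% ± 5.44 (SD, n = 3). In IMQ skin with PBS, Hbegf made up 39.7% ± 2.46 and Ereg 13.9% ± 3.76 (SD, n = 6). Tgfa held 23.5% ± 4.47 under water and 23.4% ± 2.84 under IMQ. Under water the library ranges of Tgfa (18.9% to 27.8%) and Ereg (27.5% to 36.6%) overlapped. The summed ligand level was 51.1 ± 23.7 CPM per kb under water and 151 ± 51.8 under IMQ. In colon under water Areg and Tgfa held the largest shares, 25.8% ± 5.74 and 25.6% ± 3.22 (SD, n = 5). In DSS colon with PBS, Ereg took 45.1% ± 19.4 of a summed level of 63.0 ± 22.98 CPM per kb (SD, n = 6). Single libraries ran from 19.8% to 71.8% for Ereg and from 7.19% to 32.3% for Hbegf, so these ranges overlapped. Shares of one sum depend on each other, and no test was made on them.

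**Figure D1:**
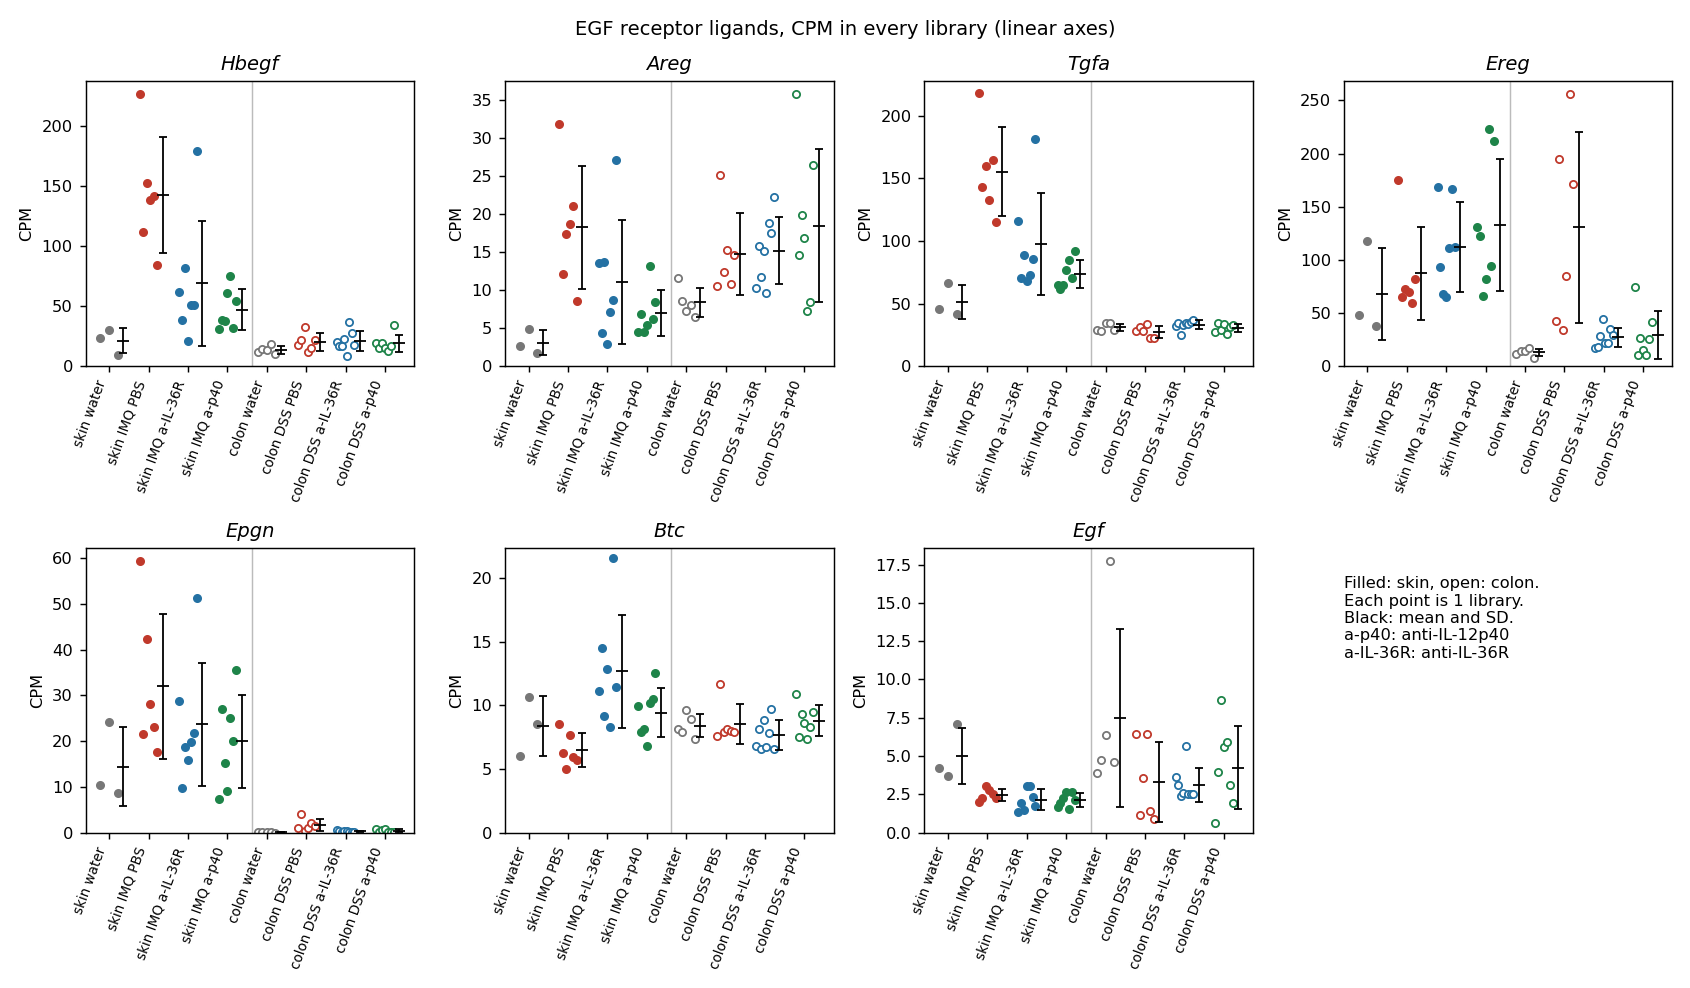
CPM (linear axes) of the 7 ligands in each library, 1 point per library, with the mean and SD of the group in black; filled points are skin and open points colon. Hbegf, Areg and Tgfa were high in IMQ skin with PBS, and Ereg in DSS colon with PBS.

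The first question was how the ligands differed between IMQ skin and water skin, both with PBS. Hbegf, Areg and Tgfa rose, Egf fell, and no receptor passed the test (edgeR quasi-likelihood, Benjamini-Hochberg adjusted p under 0.05 over 15345 genes). These 4 of 10 genes stand beside 33% of all genes called in this comparison, 15.5% higher and 17.5% lower. The members' median log2 fold change was 0.27, against -0.03 over all genes. The same 4 genes had groups that did not overlap, which held for 26.7% of all genes.

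Hbegf encodes heparin-binding EGF-like growth factor, a ligand made by keratinocytes at wound edges. It stood at 23.2, 30.1 and 9.58 CPM in the 3 water libraries and between 84.2 and 227 CPM (median 140) in the 6 IMQ libraries. Every IMQ library lay above every water library. The log2 fold change was 2.77 ± 0.54 (SE), with an adjusted p of 0.00103 by edgeR.

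Areg encodes amphiregulin, an autocrine growth factor of keratinocytes. Its water libraries read 2.62, 4.90 and 1.69 CPM, and its IMQ libraries 8.53 to 32.0 CPM (median 18.01). The groups were separate, with a log2 fold change of 2.59 ± 0.60 (SE) and an adjusted p of 0.00323 by edgeR.

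Tgfa encodes transforming growth factor alpha, a ligand that keratinocytes make and respond to themselves. It read 45.8, 66.6 and 41.4 CPM under water and 115 to 218 CPM (median 151) under IMQ. Again no value overlapped, and the log2 fold change was 1.60 ± 0.28 (SE; edgeR adjusted p = 0.000442). These 3 genes kept their call in 16 of 16 alternative settings each.

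Egf, the founding member of the family, moved the other way. It stood at 4.20, 3.71 and 7.10 CPM under water and at 2.04 to 3.07 CPM (median 2.39) under IMQ, a log2 fold change of -1.004 ± 0.25 (SE; edgeR adjusted p = 0.00459). The call rested on water replicate 3, the highest library: without it the log2 fold change was -0.66 and the adjusted p by edgeR 0.0833.

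Epgn, Ereg and Btc did not pass. Epgn, which encodes epigen, a low-affinity ligand of EGFR, had means of 32.0 ± 15.9 CPM under IMQ (SD, n = 6) and 14.4 ± 8.57 under water (SD, n = 3), with a log2 fold change of 1.16 ± 0.52 (SE; edgeR adjusted p = 0.0907). Without water replicate 2 it was 1.78 and called (0.0335). Ereg, encoding epiregulin, had a log2 fold change of 0.37 ± 0.43 and Btc, encoding betacellulin, one of -0.36 ± 0.25 (SE). The receptors were close to even: Egfr 0.17 ± 0.11, Erbb2 0.06 ± 0.13 and Erbb3 0.12 ± 0.15 (log2 fold change, SE).

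Markers of other cells differed between the same groups. The 7 stress keratinocyte markers (6 called higher, 0 lower) summed to 39050 to 57250 CPM under IMQ and 5257 to 15720 CPM under water. The 8 neutrophil markers, 7 of them tested and all 7 higher, summed to 8159 to 16730 and 407 to 2693 CPM. Ly6g was at 0 in the water group. The 6 fibroblast markers, 4 called lower, summed to 4202 to 10390 and 13590 to 23200 CPM. The 7 basal keratinocyte markers summed to 22490 to 32330 CPM under IMQ and 11550 to 17360 CPM under water. Suprabasal markers had median sums of 13810 and 36080 CPM, with ranges that overlapped (8222 to 41360 and 27890 to 56060). For the 6 general epithelial markers the median sums were near level, at 545 and 512 CPM. Their part in the ligand values was not tested, and in bulk tissue fewer cells of a type and less RNA per cell cannot be told apart.

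**Figure D2:**
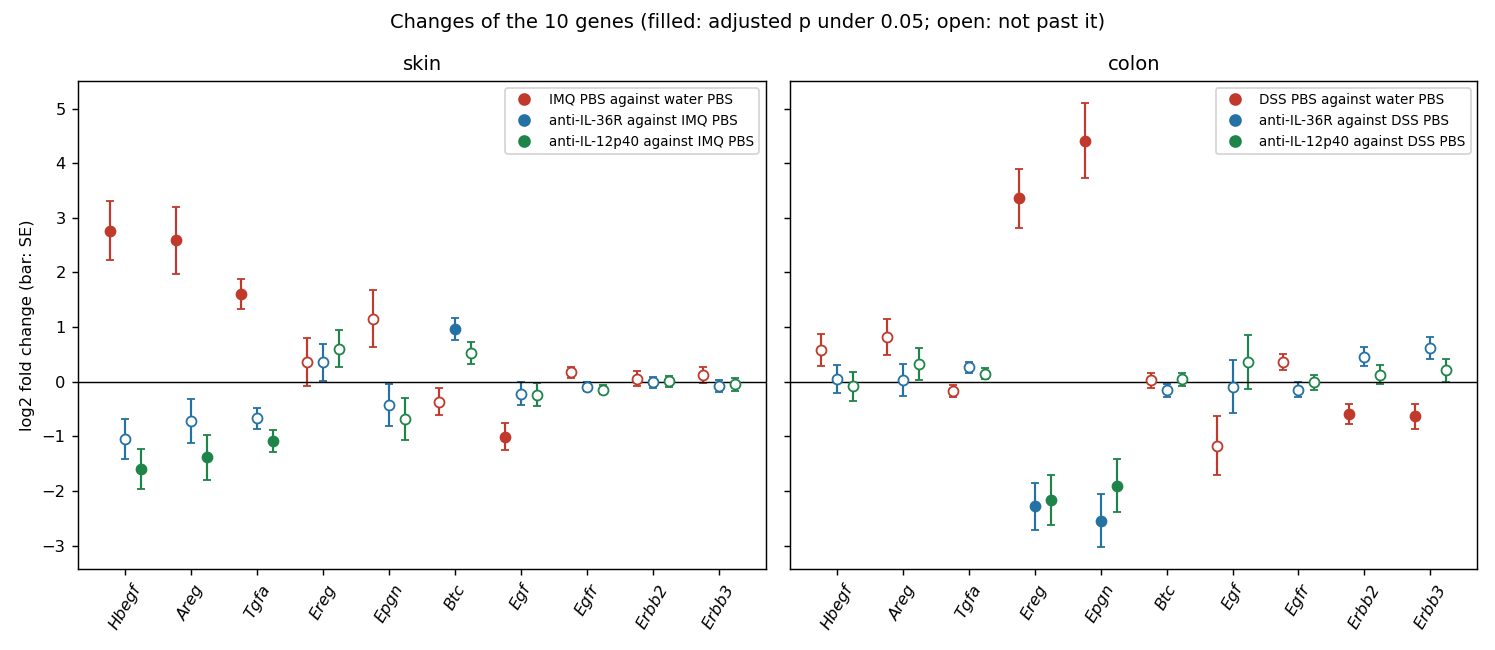
Log2 fold change (points) with its standard error (bars) of each of the 10 genes in 3 comparisons per tissue; filled points have an adjusted p under 0.05 (edgeR). In skin the filled points under IMQ are Hbegf, Areg, Tgfa and Egf, and in colon under DSS they are Ereg, Epgn, Erbb2 and Erbb3.

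The second question was what each antibody did in IMQ skin. Hbegf, Areg and Tgfa were lower with anti-IL-12p40, and Btc was higher with anti-IL-36R. Both comparisons use the 6 IMQ libraries with PBS, so they share a control and are not independent.

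Under anti-IL-12p40, 3 of 10 genes were called lower and 0 higher, beside 3.49% of all genes called lower, 5.32% called higher and 8.8% called in either direction. The members' median log2 fold change was -0.19, against 0.01 over all genes. Hbegf and Tgfa had groups that did not overlap, as did 3.77% of all genes. Hbegf read 31.2 to 75.3 CPM (median 38.4) in the 7 antibody libraries, all below the lowest PBS library at 84.2. The log2 fold change was -1.60 ± 0.37 (SE; edgeR adjusted p = 0.0106).

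Tgfa read 61.4 to 91.9 CPM (median 70.6) with the antibody, below all 6 PBS libraries, with a log2 fold change of -1.08 ± 0.20 (SE; edgeR adjusted p = 0.0033). Areg read 4.499 to 13.2 CPM (median 6.16), 6 of 7 libraries below every PBS library, with a log2 fold change of -1.39 ± 0.41 (SE; edgeR adjusted p = 0.0382). The call for Areg was the least firm and was lost in 11 of 20 alternative settings. Against PBS replicates 4 to 6 alone no gene of the set was called, with edgeR adjusted p of 0.117 for Hbegf and 0.059 for Tgfa, while against replicates 1 to 3 alone both were (0.0382 and 0.0128).

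Other marker lists differed in the same libraries. The 8 neutrophil markers summed to 1022 to 5298 CPM with anti-IL-12p40, below all PBS libraries (8159 to 16730 CPM), and 3 of the 7 tested were called lower. With anti-IL-36R they summed to 3228 to 12660 CPM, highest in replicate 7, and 0 of 7 were called. The 7 stress keratinocyte markers summed to 16590 to 46620 CPM with anti-IL-12p40 (1 called lower) and 13320 to 44370 CPM with anti-IL-36R (2 called lower), against 39050 to 57250 CPM with PBS. No marker of either list was at 0 in these 3 groups. Their part in the Hbegf, Areg and Tgfa values was not tested.

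Under anti-IL-36R, 1 of 10 genes was called, beside 4.21% of all genes, 3.29% higher and 0.919% lower. No member had groups without overlap, a state of 1.34% of all genes. The members' median log2 fold change was -0.15, against 0.00 over all genes. Btc read 8.28 to 21.6 CPM (median 11.4) with the antibody and 4.99 to 8.55 CPM (median 6.10) without it. In 6 of 7 antibody libraries Btc lay above every PBS library. Its log2 fold change was 0.96 ± 0.20 (SE; edgeR adjusted p = 0.00863). With fewer controls the value was near the same but was not called: 0.94 against PBS replicates 1 to 3 (edgeR adjusted p = 0.0981) and 0.98 against replicates 4 to 6 (0.0939). RSEM gave Btc values that are not whole in 16 of 49 libraries, a mark of reads shared with other genes. These values lay close to whole counts, the furthest being 110.1 and 103.1 in skin and 166.9 in colon.

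Btc stood beside a marker list that moved in the same libraries. All 6 sebocyte markers were lower under IMQ and all 6 were higher with either antibody, with median log2 fold changes of -2.09 for IMQ, 2.11 for anti-IL-36R and 1.92 for anti-IL-12p40. Their part in the Btc value was not tested.

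Hbegf, Tgfa and Areg did not pass under anti-IL-36R. Hbegf read 21.1 to 179 CPM (median 50.5), with 6 of 7 libraries below every PBS library. Replicate 7 alone lay among the PBS libraries, at 179 CPM. With all 7 libraries the log2 fold change was -1.05 ± 0.37 (SE; edgeR adjusted p = 0.103). Without replicate 7 it was -1.49 ± 0.31, with an adjusted p by edgeR of 0.00507. Replicate 7 held the most Hbegf of its group, so leaving it out lowers the group by construction.

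Tgfa read 67.9 to 182 CPM (median 85.6), with replicate 7 again the highest. The log2 fold change was -0.67 ± 0.20 with all 7 libraries (edgeR adjusted p = 0.0579) and -0.90 ± 0.16 without replicate 7 (0.00181). Tgfa was also called without replicate 1, its next highest library at 116 CPM. For Areg the log2 fold change was -0.72 ± 0.40 with all 7 libraries (SE; edgeR adjusted p = 0.308) and -1.12 ± 0.37 without replicate 7 (0.0634). Epgn, Ereg, Egf and the receptors were not called under either antibody, nor was Btc under anti-IL-12p40 (0.53 ± 0.20, SE; edgeR adjusted p = 0.0965).

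Set against each other, the 2 antibodies differed in 0 of the 10 genes by edgeR, beside 0.0456% of all genes, 0.013% higher and 0.0326% lower (2 of the 10 at an unadjusted p under 0.05, Tgfa and Btc). The log2 difference of anti-IL-36R over anti-IL-12p40 was 0.55 ± 0.36 for Hbegf and 0.41 ± 0.19 for Tgfa (SE), and without anti-IL-36R replicate 7 it was 0.11 ± 0.29 and 0.19 ± 0.15. A call for one antibody and not for the other is therefore no shown difference between them. DESeq2 and limma-voom also called 0 of the 10.

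Against water skin, genes were still called in both antibody groups. With anti-IL-36R, 4 of 10 genes were called, beside 13.1% of all genes, 5.97% higher and 7.17% lower. Hbegf (1.72 ± 0.51), Areg (1.87 ± 0.58) and Tgfa (0.93 ± 0.26) were higher and Egf (-1.22 ± 0.24) lower on the log2 scale (SE), with edgeR adjusted p of 0.0289, 0.0375, 0.0229 and 0.00314. The first 3 calls were lost without water replicate 1 or 3, where 1 gene, Egf, was called, and Areg was also lost without antibody replicate 1, 3 or 7 (1.46 ± 0.51 and an edgeR adjusted p of 0.0729 without replicate 7). With anti-IL-12p40 only Egf was called, lower by -1.24 ± 0.24 (SE; edgeR adjusted p = 0.00675), beside 4.8% of all genes, 2.41% higher and 2.39% lower. Without water replicate 3 its adjusted p was 0.0589. Hbegf was at 1.17 ± 0.49 there and not called, though all 7 libraries lay above the water libraries, as groups without overlap did in 9.44% of all genes.

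**Figure D3:**
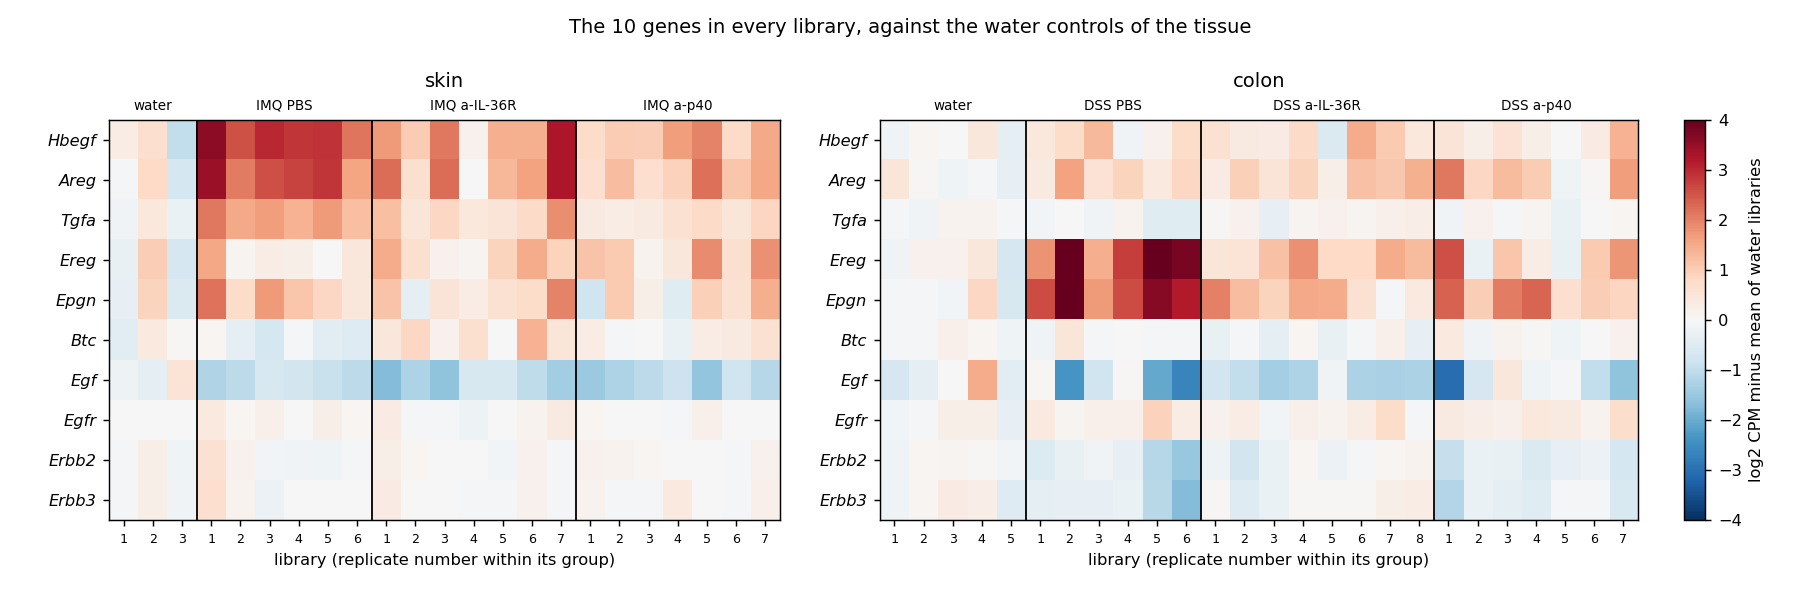
Log2 CPM of each of the 10 genes in each library minus the mean of the water libraries of the same tissue (prior count 2; colour scale limited to -4 to 4). Replicate 7 of anti-IL-36R in skin has the colours of IMQ with PBS for Hbegf, Areg, Tgfa and Epgn, and replicates 2, 5 and 6 of DSS with PBS have the deepest red for Ereg.

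In colon the question was the same for DSS with PBS against water with PBS. Another pair of ligands rose, Ereg and Epgn, and the receptors Erbb2 and Erbb3 fell. These 4 of 10 genes stand beside 32.2% of all 15731 genes called, 17.6% higher and 14.7% lower. The members' median log2 fold change was 0.19, against -0.03 over all genes. Ereg and Epgn had groups that did not overlap, as did 13.1% of all genes.

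Ereg read 11.1, 14.02, 13.9, 17.04 and 7.61 CPM in the water libraries. In the 6 DSS libraries it ran from 34.3 to 256 CPM, with a median of 128. All 6 were above every water library, but they spread widely: replicates 2, 5 and 6 read 195, 256 and 171 CPM, and replicates 1, 3 and 4 read 42.9, 34.3 and 84.7. The log2 fold change was 3.36 ± 0.54 (SE; edgeR adjusted p = 5.32e-05).

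Epgn was near its detection limit in water colon, with 1, 1, 1, 3 and 0 counts in the 5 libraries. The 6 DSS libraries held 16, 67, 8, 17, 37 and 27 counts, or 0.481 to 3.999 CPM (median 1.28). The fitted log2 fold change of 4.41 ± 0.69 (SE; edgeR adjusted p = 3.46e-05) depends on the prior count at such levels, and the group means were 1.71 and 0.0767 CPM. Both Ereg and Epgn kept their call in 17 of 17 alternative settings. Epgn passed the filter in colon only through this DSS group, so its p-values and kept calls there are no independent support.

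Areg, Hbegf and Egf did not pass. Areg had means of 14.8 ± 5.41 CPM under DSS (SD, n = 6) and 8.38 ± 1.96 under water (SD, n = 5), with a log2 fold change of 0.82 ± 0.33 (SE; edgeR adjusted p = 0.0578). Hbegf was at 0.58 ± 0.29. Egf was at -1.17 ± 0.54, and at -0.56 ± 0.53 without water replicate 4, its highest library at 17.74 CPM. Tgfa (-0.17 ± 0.11) and Btc (0.02 ± 0.13) were nearly level with water, with SDs under 5 CPM in every colon group.

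Of the receptors, Erbb2 read 181, 213, 217, 207 and 183 CPM under water and 70.2 to 181 CPM (median 147) under DSS. Its log2 fold change was -0.59 ± 0.19 (SE; edgeR adjusted p = 0.019). Erbb3 read 215, 255, 300, 289 and 167 CPM under water and 72.2 to 198 CPM (median 187) under DSS, with a log2 fold change of -0.64 ± 0.22 (SE; edgeR adjusted p = 0.0321). In both genes replicates 5 and 6 were the lowest: Erbb2 at 90.4 and 70.2 CPM, Erbb3 at 111 and 72.2 CPM.

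Both receptor calls depended on single libraries. The split of replicates 1 to 4 from 5 and 6 was chosen after the values were seen. Without replicate 5 the edgeR adjusted p was 0.0533 for Erbb2 and 0.0828 for Erbb3, and with replicates 1 to 4 only the log2 fold changes were -0.32 and -0.35 (0.136 and 0.204). Without replicate 6 Erbb2 kept its call (0.0453) and Erbb3 did not (0.0749). Erbb3 also lost its call without water replicate 2, 3 or 4 (0.0567, 0.0867 and 0.0701), and both genes lost it in a fit of only the 2 groups (0.0845 for Erbb2 and 0.115 for Erbb3). Egfr had means of 65.5 ± 15.1 CPM under DSS (SD, n = 6) and 51.1 ± 8.26 under water (SD, n = 5). Its log2 fold change was 0.36 ± 0.15 (SE; edgeR adjusted p = 0.0635), with replicate 5 of DSS the highest at 95.1 CPM.

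**Figure D4:**
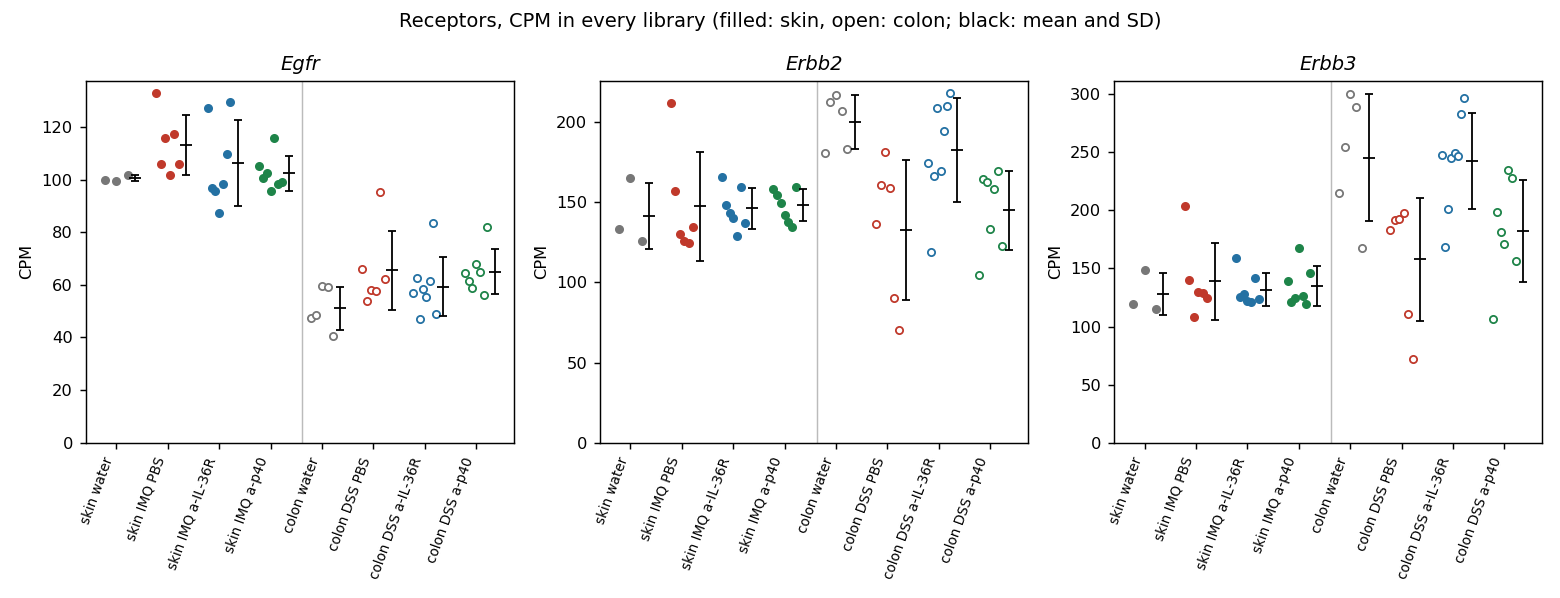
CPM (axes from 0) of the 3 receptors in each library, with the mean and SD in black; filled points are skin and open points colon. The 2 lowest points of Erbb2 and of Erbb3 in DSS colon with PBS are replicates 6 and 5.

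Marker sums moved in the same libraries. The 6 general epithelial markers (0 of 6 called under DSS) summed to 7492 to 9547 CPM under water and 2292 to 8249 CPM under DSS, with replicates 5 and 6 lowest. The 7 absorptive colonocyte markers, 3 called lower, summed to 535 to 3199 CPM under DSS, below all water libraries (3336 to 6396 CPM), and replicates 5 and 6 were again lowest, at 1136 and 535 CPM. The 8 neutrophil markers, 7 called higher, summed to 7.21 to 85.3 CPM under water. Under DSS they summed to 3372, 2846 and 2598 CPM in replicates 2, 5 and 6, the 3 libraries with the most Ereg, and to 226, 351 and 587 CPM in replicates 1, 3 and 4. The 6 fibroblast markers, all called higher, summed to 3997 to 13880 under DSS and 1706 to 2876 CPM under water. No marker of these lists was at 0 in either group. The stress keratinocyte markers were also highest in replicates 2, 5 and 6, at 28.05, 27.51 and 1701 CPM. In replicates 1, 3 and 4 they summed to 4.71, 9.02 and 13.03 CPM, and 5 of these markers were at 0 in the water group. The part of all these cells in the Ereg, Erbb2 and Erbb3 values was not tested.

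**Figure D5:**
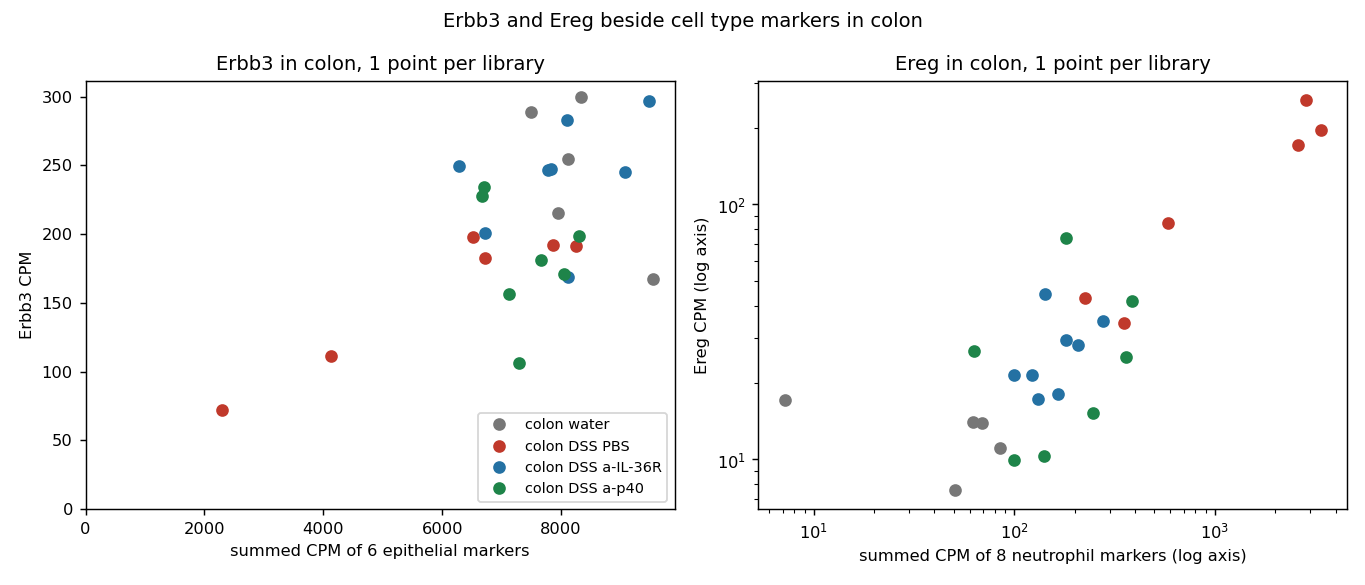
Left: Erbb3 (CPM) against the summed CPM of 6 general epithelial markers; right: Ereg (CPM, log axis) against the summed CPM of 8 neutrophil markers (log axis), 1 point per colon library. Within DSS with PBS, the 2 lowest epithelial sums go with the 2 lowest Erbb3 values. The lowest Erbb3 value of anti-IL-12p40, 106.5 CPM, was also low, though no epithelial sum of that group was under 6666 CPM. The 3 highest neutrophil sums go with the 3 highest Ereg values.

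Ereg and Epgn were lower with either antibody in DSS colon. The comparisons share the 6 DSS libraries with PBS. Under anti-IL-36R, 2 of 10 genes were called, both lower, beside 6.6% of all genes called, 5.45% lower and 1.16% higher. No member had groups without overlap, a state of 0.903% of all genes. The members' median log2 fold change was -0.03, against 0.00 over all genes.

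Ereg read 17.2 to 44.4 CPM (median 24.8) in the 8 antibody libraries, 6 of them below every PBS library. That is a log2 fold change of -2.28 ± 0.43 (SE; edgeR adjusted p = 0.00199). Against PBS replicates 1 to 4 alone it was -1.74 ± 0.45 with an adjusted p by edgeR of 0.074. Epgn had 1 to 10 counts a library (0.0582 to 0.63 CPM, median 0.269), 7 of 8 below every PBS library. Its log2 fold change was -2.55 ± 0.48 (SE; edgeR adjusted p = 0.00188), and it kept its call in 20 of 20 alternative settings. The filter's limit given above for Epgn holds for each comparison within colon.

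Erbb3 and Erbb2 did not pass under anti-IL-36R, at 0.62 ± 0.20 and 0.46 ± 0.17 (log2 fold change, SE; edgeR adjusted p = 0.0655 and 0.105). Erbb3 nevertheless read 169 to 297 CPM (median 247) over the 8 libraries, and 7 of them lay above all PBS libraries. Areg and Hbegf were level with DSS and PBS, at 0.04 ± 0.29 and 0.05 ± 0.26.

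Under anti-IL-12p40, 2 of 10 genes were called, both lower, beside 1.15% of all genes called, 1.13% lower and 0.0191% higher. Groups without overlap were found for 0 of 10 members and 0.127% of all genes. The members' median log2 fold change was 0.08, against 0.00 over all genes. Ereg read 9.98 to 74.1 CPM (median 25.3), 5 of 7 libraries below every PBS library, with a log2 fold change of -2.17 ± 0.45 (SE; edgeR adjusted p = 0.0199). Epgn had 3 to 15 counts a library and a log2 fold change of -1.90 ± 0.48 (SE; edgeR adjusted p = 0.0489). Both calls were fragile: Ereg lost its own in 9 and Epgn in 14 of 19 alternative settings. Leaving out any 1 of replicates 2, 3, 4 and 5 of the antibody group, or of PBS replicates 5 and 6, left 0 genes called.

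The neutrophil markers followed in both antibody groups, with 7 of 8 called lower under anti-IL-36R (99.8 to 278 CPM summed) and 6 of 8 under anti-IL-12p40 (63.1 to 385 CPM). Their part in the Ereg and Epgn values was not tested. Between the 2 antibodies, edgeR called 0 of the 10 genes and 0% of all 15731 genes, and 0.00636% of all genes had groups without overlap. At an unadjusted p under 0.05 there were 552 genes, of which Erbb2 and Erbb3 were 2. DESeq2 and limma-voom called 0 of the 10 as well.

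Against water colon, anti-IL-36R left 0 of 10 genes called by edgeR, beside 9.92% of all genes (6.92% higher, 3.01% lower), with 5 of the 10 at an unadjusted p under 0.05. DESeq2 called 1, Areg, and limma-voom 1, Epgn. Ereg stood at 1.08 ± 0.48 on the log2 scale (SE; edgeR adjusted p = 0.163), with 8 of 8 libraries above the water libraries, where 6.04% of all genes had groups without overlap. Under anti-IL-12p40, 2 of 10 were called, beside 17.2% of all genes, 10.8% higher and 6.4% lower. Areg was higher by 1.14 ± 0.32 and Epgn by 2.51 ± 0.71 on the log2 scale (SE; edgeR adjusted p = 0.0159 and 0.0166). Areg read 7.22 to 35.8 CPM (median 16.8) in that group, and 5 of its 7 libraries lay above the water libraries. Erbb2 was not called there, at -0.465 ± 0.181 (SE; edgeR adjusted p = 0.0785). All 7 of its libraries lay below the water libraries, and 10.9% of all genes had groups without overlap. Limma-voom and the fit of only the 2 groups did call Erbb2.

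Whether the tissues differed was tested directly, as the difference between the colon and the skin log2 fold changes in a fit over all 49 libraries and 16818 genes. IMQ and DSS are different agents, so tissue and agent cannot be told apart. For inflammation against water, 7 of 10 genes differed, beside 22.3% of all genes. The change was smaller in colon for Hbegf (-2.23 ± 0.57), Tgfa (-1.81 ± 0.28) and Areg (-1.80 ± 0.65), and larger for Ereg (2.94 ± 0.68) and Epgn (3.22 ± 0.95). The edgeR adjusted p were 0.00415, 8.14e-06, 0.0379, 0.00153 and 0.0123 in that order.

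The differences of Erbb2 (-0.69 ± 0.26) and Erbb3 (-0.80 ± 0.30) were close to the threshold, with edgeR adjusted p of 0.0456 and 0.0485. They were lost in 14 and 15 of 24 alternative settings, among them those without DSS replicate 5 or 6. Hbegf, Tgfa and Ereg held in 24 of 24. Areg lost its call in 8 of 24, without skin water replicate 1 or 3 among them, and Epgn in 2 of 24.

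For anti-IL-36R against PBS, 4 of 10 differed between the tissues, beside 5.14% of all genes. Ereg (-2.60 ± 0.57) and Epgn (-2.09 ± 0.64) had the lower change in colon, Tgfa differed by 0.96 ± 0.23, and Btc by -1.10 ± 0.23 (edgeR adjusted p = 0.00501, 0.0444, 0.0086 and 0.00348). Epgn lost this call in 18 of 31 alternative settings, among them the one without skin replicate 7 (0.0786), and the other 3 kept it in 31 of 31. Hbegf was not called with all libraries, at 1.13 ± 0.46 (edgeR adjusted p = 0.15), and was called without skin replicate 7, at 1.56 ± 0.41 (0.0185). For anti-IL-12p40 the count was 2 of 10, beside 1.87% of all genes. Ereg differed by -2.74 ± 0.58 and Tgfa by 1.25 ± 0.23 (edgeR adjusted p = 0.00911 and 0.00264), and both held in 30 of 30 settings.

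The rest of the pathway was read from 7 lists of genes. In IMQ skin, where 15.5% of all genes were called higher and 17.5% lower, 12 of 21 immediate early and ERK target genes were called higher and 1 lower, with a median log2 fold change of 0.91. Fos, an AP-1 subunit, was at 2.53 ± 0.76 and Phlda1 at 1.80 ± 0.38 (SE; edgeR adjusted p = 0.0149 and 0.00179). Plaur, the urokinase receptor, was at 1.72 ± 0.35 (0.0013). Of 10 MAP kinase phosphatases 3 were higher and 2 lower, with Dusp6, which removes phosphate from ERK, at 1.16 ± 0.26 (0.00285).

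The receptor inhibitors gave 3 higher and 3 lower of 16 in IMQ skin. Lrig1, a membrane protein that lowers EGFR levels, fell by 0.98 on the log2 scale (SE 0.18; edgeR adjusted p = 0.000643). Among other ErbB ligands, 3 of 5 listed genes were tested and all 3 changed. Nrg1 was higher by 2.73 ± 0.59, while Nrg4 (-1.88 ± 0.41) and Nrg2 (-1.47 ± 0.34) were lower (edgeR adjusted p = 0.00204, 0.00189 and 0.00297). Sheddases and trafficking factors gave 4 higher and 1 lower of 12, adaptors and RAS-ERK kinases 5 and 1 of 18, and the PI3K, STAT and PLC genes 2 and 2 of 13. Receptor inhibitors, adaptors and the PI3K list were thus near or below the 33% of all genes called in either direction.

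With anti-IL-12p40 in skin, where 8.8% of all genes were called, 3 of the 21 ERK target genes were lower, Phlda1 (-1.14 ± 0.28), Plaur (-1.05 ± 0.25) and Ier3 (-0.87 ± 0.20), and 1 was higher, Egr2 (1.21 ± 0.19; edgeR adjusted p = 0.0137, 0.0129, 0.0112 and 0.00156). With anti-IL-36R, 1 was higher, again Egr2 (1.30 ± 0.19; edgeR adjusted p = 0.00181), and 0 were lower, a share near the 4.21% of all genes called. Nrg2 and Nrg4 were higher with both antibodies, by 1.04 and 1.41 with anti-IL-36R and by 1.36 each with anti-IL-12p40. The sheddase list had 0 of 12 called under either.

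In DSS colon, where 17.6% of all genes were called higher and 14.7% lower, 9 of 21 ERK target genes were higher and 1 lower, led by Plaur (2.97 ± 0.48), Egr2 (2.52 ± 0.47), Ier3 (2.52 ± 0.38) and Fosl1 (2.49 ± 0.67). Of the 12 sheddases and trafficking factors 7 were higher and 1 lower. Adam12 was at 3.97 ± 0.49, Adam8, which neutrophils and macrophages also make, at 3.84 ± 0.53, and Rhbdf2, which carries the sheddase ADAM17 to the cell surface, at 1.02 ± 0.15. The edgeR adjusted p were 2.49e-06, 8.07e-06 and 1.85e-05. Of 10 phosphatases 6 were higher and 0 lower, and of 13 PI3K, STAT and PLC genes 7 were higher and 4 lower. Adaptors and RAS-ERK kinases gave 4 higher and 2 lower of 18, receptor inhibitors 3 and 4 of 16, and the other ErbB ligands 2 higher of 3 tested, Nrg1 (2.97 ± 0.58) and Nrg2 (1.06 ± 0.40). The adaptors were near the 32.2% of all genes called in either direction.

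With anti-IL-36R in colon, where 5.45% of all genes were called lower, 4 of 21 ERK target genes were lower, Fosl1 (-2.21 ± 0.56), Plaur (-1.95 ± 0.38), Ier3 (-1.73 ± 0.31) and Elk3, and 0 were higher. Adam8 (-2.49 ± 0.41), Adam12 (-1.32 ± 0.36) and Rhbdf2 (-0.47 ± 0.13) were the 3 sheddase genes called lower. Dusp1 (-1.35 ± 0.38) and Dusp2 (-1.17 ± 0.35) were lower among the phosphatases, and no receptor inhibitor, adaptor or neuregulin was called. With anti-IL-12p40, where 1.13% were called lower, Ier3 (-1.31 ± 0.32) and Adam8 (-2.01 ± 0.42) were called lower and no other gene of the 7 lists.

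The genes whose log2 CPM ran most like a ligand's were named by Pearson correlation over the libraries of a tissue, as a description. In skin (n = 23) these were Zdhhc13, Sprr2g and Sprr2h for Hbegf (0.966, 0.961 and 0.956), Junb, Phlda1 and Tiparp for Areg (0.973, 0.973 and 0.962), and Ppard, Eaf1 and Ier3 for Tgfa (0.967, 0.959 and 0.957). Hbegf followed Areg with 0.958 and Tgfa with 0.948, and with group means subtracted these were 0.92 and 0.859. In colon (n = 26), Zfp281, Ier3 and Gpm6b were closest to Ereg (0.924, 0.923 and 0.907), and Smim3, Mmp13 and Lcn2 to Epgn (0.882, 0.873 and 0.872). Hbegf in colon ran closest to the immediate early genes Fos (0.803) and Egr1 (0.781). Ereg and Epgn correlated at 0.802, and at 0.482 with group means subtracted. Erbb2 and Erbb3 correlated at 0.938 and at 0.912. All these correlations come from the same libraries and share their depth and cell makeup.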

How the data were processed

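The authors deposited expected counts per gene, 1 table per tissue with Entrez identifiers; per the submitters' processing notes they used RSEM and the mm10 genome. Versions, aligner, annotation and strand setting are not given in the sources used here. Libraries were made from messenger RNA with a strand-specific ScriptSeq kit, per the labels' protocols. Of the values, 16.9% in skin and 17.5% in colon were not whole; they were rounded. Of 24475 identifiers 24375 matched a RefSeq symbol.

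Genes passing edgeR's low-count filter (15345 in skin, 15731 in colon, 16818 over both) were fitted with edgeR 4.0.16 (R 4.3.3): TMM scaling and quasi-likelihood tests, 4 groups per tissue in 1 fit and 8 groups for tissue differences, with Benjamini-Hochberg adjustment over all genes and a threshold of 0.05. The biological coefficient of variation was 0.201 in skin, 0.29 in colon and 0.26 over both. The SE was obtained by dividing the absolute log2 fold change by √F. CPM used TMM-adjusted totals, and levels per kilobase used GENCODE M21 union exons. Scripts were tested on simulated data.

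Groups came from the titles, and replicates were numbered in accession order within a group. Over 60 pairs of skin and 74 pairs of colon libraries within groups, the chi-square of counts per degree of freedom was at least 11.2, so none was counted as a repeat. Alternatives were DESeq2 1.42.0 (also its size factors in edgeR), limma-voom (limma 3.58.1) with sample weights, no filter, fits of only the groups compared, subsets of the PBS libraries and each library left out. Named were the 10 genes, up to 4 called genes with the largest change per list and comparison, and the 3 genes most like a ligand. The members and the 26 lists (7 of the pathway, 19 of cell types) were chosen with earlier results of these data known.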

Additional observations from a re-analysis of the deposited data

Results flagged for a closer look

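In 13 of the 70 sets of 4 to 10 libraries examined (10 genes in the 7 groups that have that many), 1 library stood far from the others by Dixon's test at the 95% level, where chance gives about 1 in 20. In skin, replicate 7 of anti-IL-36R stood apart for Hbegf (178.9 CPM) and Tgfa (181.7 CPM). Replicate 1 of IMQ with PBS stood apart for Ereg (175.2 CPM), Erbb2 (212.0 CPM) and Erbb3 (203.4 CPM). In DSS colon with PBS, replicate 2 did so for Areg (25.13 CPM) and Btc (11.7 CPM) and replicate 5 for Egfr (95.14 CPM). Among the antibody groups of the colon, anti-IL-36R gave Tgfa in replicate 3 (24.57 CPM, low), Egf in replicate 5 (5.684 CPM) and Egfr in replicate 7 (83.57 CPM). Anti-IL-12p40 gave Hbegf in replicate 7 (34.26 CPM). In water colon Egf was high in replicate 4 (17.74 CPM).

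The test of the difference between colon and skin was passed 13 times (edgeR, colon minus skin, log2). For inflammation against water the values were -2.226 for Hbegf, -1.804 for Areg, 2.938 for Ereg, -1.81 for Tgfa, 3.218 for Epgn, -0.69 for Erbb2 and -0.798 for Erbb3. For anti-IL-36R they were -2.601 for Ereg, 0.959 for Tgfa, -1.096 for Btc and -2.094 for Epgn. For anti-IL-12p40 they were -2.737 for Ereg and 1.253 for Tgfa. The agents differ between the tissues, so tissue and agent cannot be told apart.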

How the results depend on the processing

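No value of the 10 genes reversed a call under any alternative, and the values below are counts of the 10 genes called. No paired analysis was possible because the labels give each library a number of its own, so no numbers are shared between groups. With 1 library left out, the counts ran from 3 to 5 for IMQ against water (4 with all libraries), 1 to 3 for anti-IL-36R against PBS in skin (1), 2 to 3 for anti-IL-12p40 in skin (3), 1 to 4 and 0 to 1 for these antibodies against water skin (4 and 1), 2 to 6 for DSS against water (4), 2 to 3 and 0 to 2 for anti-IL-36R and anti-IL-12p40 in colon (2 and 2), 0 to 0 and 2 to 2 for them against water colon (0 and 2), and 4 to 7, 3 to 4 and 2 to 3 for the tissue differences of disease, anti-IL-36R and anti-IL-12p40 (7, 4 and 2). DESeq2 gave 3 for anti-IL-36R in skin, 1 for anti-IL-36R against water colon and 4 for the tissue difference of anti-IL-12p40. Limma-voom gave 4 for anti-IL-36R in skin, 1 for it against water skin, 0 for anti-IL-12p40 in colon, 1 and 4 for anti-IL-36R and anti-IL-12p40 against water colon and 3 for the tissue difference of disease. Fits of only the groups compared gave 1 for anti-IL-36R against water skin, 0 for anti-IL-12p40 in colon and 3 for anti-IL-36R against water colon. With no filter anti-IL-12p40 in colon gave 1. PBS replicates 1 to 3 only gave 0 for anti-IL-36R in skin, and replicates 4 to 6 only gave 0 for each antibody. With DSS PBS replicates 1 to 4 only, an alternative chosen after the data were seen, DSS against water gave 2, anti-IL-36R 1 and anti-IL-12p40 0. Subsets hold fewer samples; otherwise the cause was not tested. Over all genes, anti-IL-36R in skin called 646 genes with the main settings, 1112 with DESeq2, 2750 with limma-voom, and 105 and 52 against PBS replicates 1 to 3 and 4 to 6. In colon, anti-IL-36R called 1039 genes and 115 with DSS PBS replicates 1 to 4, and anti-IL-12p40 called 181 genes and 0 with limma-voom. Low counts limit Epgn in colon, where water libraries held at most 3.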

Other observations

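The other ligands also ran close to particular genes, as a description over the same libraries. In skin (n = 23), Ereg ran with Iffo2 (Pearson r 0.935) and with Dsc1 (0.909), a desmosome gene of the upper epidermis, and stayed apart from Hbegf (0.267) and Tgfa (0.242). Btc ran with Nlrp10 (0.854), and after subtraction of group means with Slc19a2 (0.858). Epgn in skin followed Areg (0.809) more than Ereg (0.468), while in colon it followed Ereg (0.802) more than Areg (0.385, n = 26); these differences were not tested. Egf in colon ran with Igdcc4 (0.9) and with Hepacam2 (0.89), a gene of secretory epithelial cells, and against Ereg (-0.628).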
